A study of Mus musculus with 8 samples.

Results

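The 6 genes of the platelet-derived growth factor (PDGF) system, the receptors Pdgfra and Pdgfrb and the ligands Pdgfa, Pdgfb, Pdgfc and Pdgfd, were followed through 7 lists of open chromatin from mouse bone marrow stromal cells. They were chosen by name, from 22367 protein-coding genes of the GENCODE vM1 annotation on the mouse build mm9, and all 6 were found there. The study sorted stromal cells that carry PDGFR-α and Sca-1 and lack CD31, CD45 and TER119, split them into subpopulations and mapped the open chromatin of each by ATAC-seq, a method that reads where the transposase Tn5 can cut the DNA. The deposited peak lists are named ATAC1 to ATAC7, each set against 1 Input control. All of the material was wild type C57BL/6J bone marrow, post natal 6 weeks, by the labels, which name no treatment or transgene. No label ties a title to a sorted population, so libraries go by their titles. Each title had 1 library, so every difference below is between libraries and none has a replicate check or a p-value. Intervals cover counting error only.

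PDGFs are dimeric growth factors that bind a pair of receptor tyrosine kinases. PDGFR-α binds the A, B and C chains and PDGFR-β binds mainly B and D, and both signal through adaptors to the RAS, PI3-kinase and STAT pathways. In bone marrow PDGFR-α is a surface marker by which stromal cells are sorted, whereas PDGFR-β is known from stromal cells and from the pericytes along blood vessels.

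A start-site peak is a called peak whose centre lay within 1000 bases of an annotated transcript start. Reads were counted over the outer region of the peak, in the library and in Input. The fold is the library reads times a scale factor of the library, divided by the Input reads, and it is given with its 95% exact interval. Scaled reads are the reads times that factor. A gene without a start-site peak had none called at the authors' threshold, which is not a measurement of closed chromatin. List length ran from 15188 peaks (ATAC7), 15650 (ATAC4) and 16027 (ATAC3) through 24510 (ATAC1) to 28969 (ATAC6), 31479 (ATAC5) and 32280 (ATAC2).

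Of the 6 genes, 5 had a start-site peak in at least 1 library, against 56.7% of all protein-coding genes, and none had one in all libraries, against 36.8%. The exception was Pdgfb, which had none anywhere. The PDGF genes called numbered 5 in ATAC2, where 50.2% of all genes were called, and 5 in ATAC5, where 52.7% were. They numbered 4 in ATAC6 against 51.5% of all genes, 3 in ATAC1 against 49% and 3 in ATAC7 against 42%. They numbered 2 in ATAC3, against 43.5% and 2 in ATAC4 against 43.7%. The libraries with the most PDGF genes were thus those with the longest peak lists. That order did not hold at equal list length, where ATAC5 had 4, ATAC7 had 3, ATAC1 had 0 and the others 2 each. At that length 41.5% to 45.9% of all genes were called in each library. Over the 42 pairs of gene and library, 24 or 57.1% had a start-site peak, against 47.5% of the pairs of all genes. When each list was reduced to its best-ranked peaks, as many as the shortest list holds, 15 pairs or 35.7% were left, against 43.7% of all. The excess over the background was therefore not seen at equal list length. Nor was it seen at folds of at least 5, where 16 pairs or 38.1% were left, against 38.5% of all.

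The best-ranked start-site peaks of the PDGF genes were weak beside those of other genes. In 24 of the 24 pairs the scaled reads of the best-ranked peak were under the median of start-site peaks in the same library. In 18 of the 24 the fold was under that median too. The Input reads behind these best-ranked peaks were 9 to 91 a peak, which limits the precision of the folds. Of the 5 lower-ranked start-site peaks of Pdgfra, that of ATAC2 with 103 reads against 10 had a fold of 16.3 (8.50 to 34.9), above that of 85.7% of the called genes. That of ATAC5 with 37 reads against 4 had a fold of 15.8 (5.69 to 61.2). Both intervals span the median of their library, 8.73 in ATAC2 and 12.4 in ATAC5. The other 3 had folds of 6.32 in ATAC2, 6.30 in ATAC5 and 10.2 in ATAC6, each under the median of its library.

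**Figure D1:**
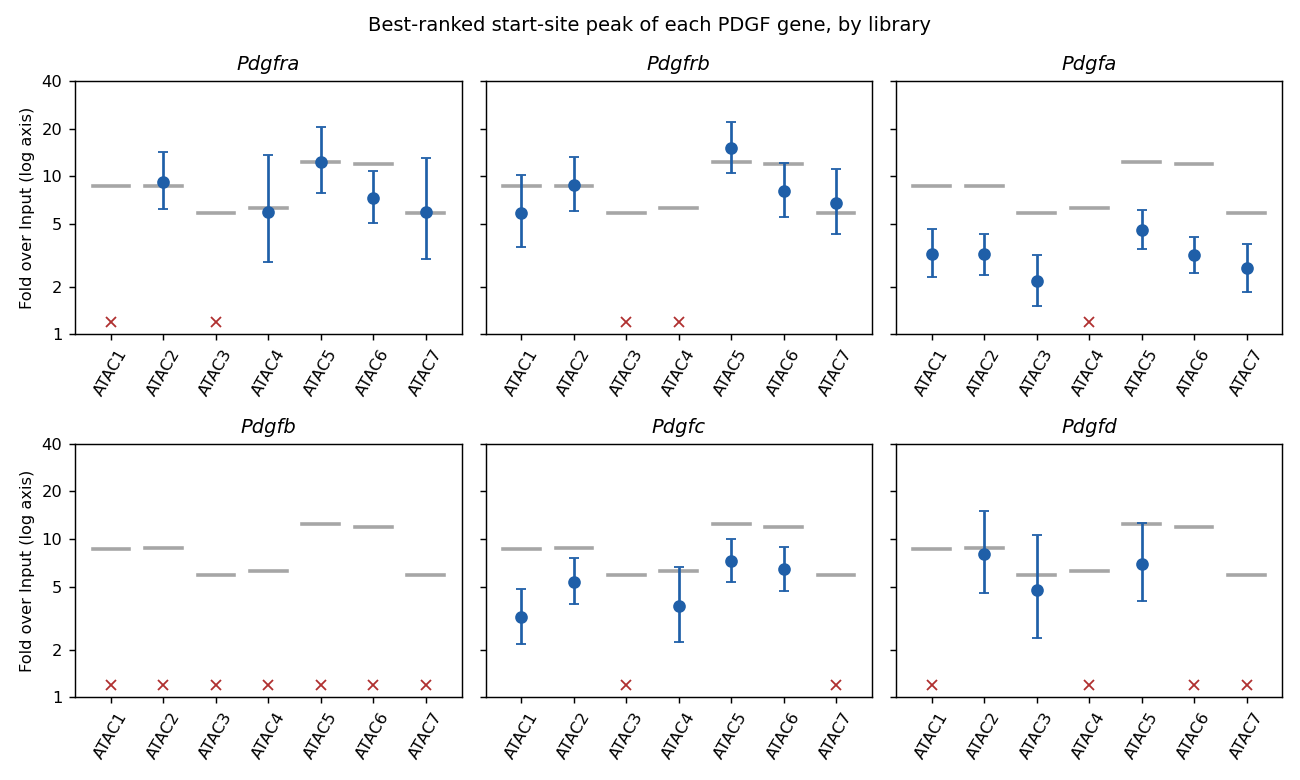
Fold over Input (log axis) of the best-ranked start-site peak of each PDGF gene in each library; blue points are the folds, bars their 95% exact intervals, grey lines the library's median over all genes with a start-site peak, and red crosses libraries with no start-site peak called. Pdgfa lay under the grey line in all 6 libraries where it was called, and Pdgfb had no point.

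Pdgfra, the receptor by which the cells were sorted, had a start-site peak in ATAC2, ATAC4, ATAC5, ATAC6 and ATAC7 and in neither ATAC1 nor ATAC3. The gene (ENSMUSG00000029231.9) lies on the plus strand at chr5:75548316-75594229 of mm9 and has 2 annotated starts, 3875 bases apart. All 10 of its start-site peaks lay at the second, at position 75552191. No library had a peak centred within 1000 bases of the first, which is the 5′ end of the gene. Among the 12677 genes with a start-site peak in some library, 5.21% likewise had none at the 5′ end of the gene. The RefSeq promoter of Pdgfra, matched to mm9 by its sequence, starts at position 75548276, which is 40 bases from the first start and also without a peak.

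The best-ranked Pdgfra peak of ATAC5 had 152 reads against 21 in Input, a fold of 12.4 (7.83 to 20.6). That of ATAC2 had 170 against 29, a fold of 9.26 (6.22 to 14.2). That of ATAC6 had 162 against 35, a fold of 7.29 (5.03 to 10.8). These 3 libraries had the higher read counts at the gene. ATAC7 had 54 reads against 10, a fold of 5.96 (3.01 to 13.1). ATAC4 had 47 against 9, a fold of 5.91 (2.87 to 13.7). All 5 intervals overlapped, so no order of the folds stood out from counting error. The peak of ATAC4 was the 15179th of 15650 in its list, close to the limit of calling, and that of ATAC7 the 13456th of 15188. In its own library, the fold exceeded that of 54.4% of the genes with a start-site peak in ATAC2, 50.8% in ATAC7, 50.1% in ATAC5, 44.4% in ATAC4 and 22.2% in ATAC6. All 5 calls were among those left at equal list length. The surface protein was thus a criterion of the sort, yet 2 libraries had no peak called anywhere in the gene or within 100 kb of it.

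Around Pdgfra there were 17 peaks in 4 merged regions, and the nearest start in each case was one of Pdgfra itself. At equal list length 6 of the 17 were left. The first region, 9.03 kb upstream of the gene at chr5:75539138-75539429, was called in ATAC2 with 77 reads against 22 (fold 5.53) and in ATAC5 with 86 against 25 (fold 5.89). A second region in the intron at chr5:75550103-75550800 was called in the same libraries, with folds of 6.85 to 15.2. The third held 7 of the 10 start-site peaks, around the untranslated exon of the second start. The fourth, at chr5:75553007-75553513 in the intron that follows, held the other 3 and was called in ATAC2, ATAC5 and ATAC6 with folds of 10.2 to 16.3. ATAC2 and ATAC5 were thus the libraries with peaks in all 4 regions, whereas ATAC4 and ATAC7 had 1 peak each, at the second start.

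**Figure D2:**
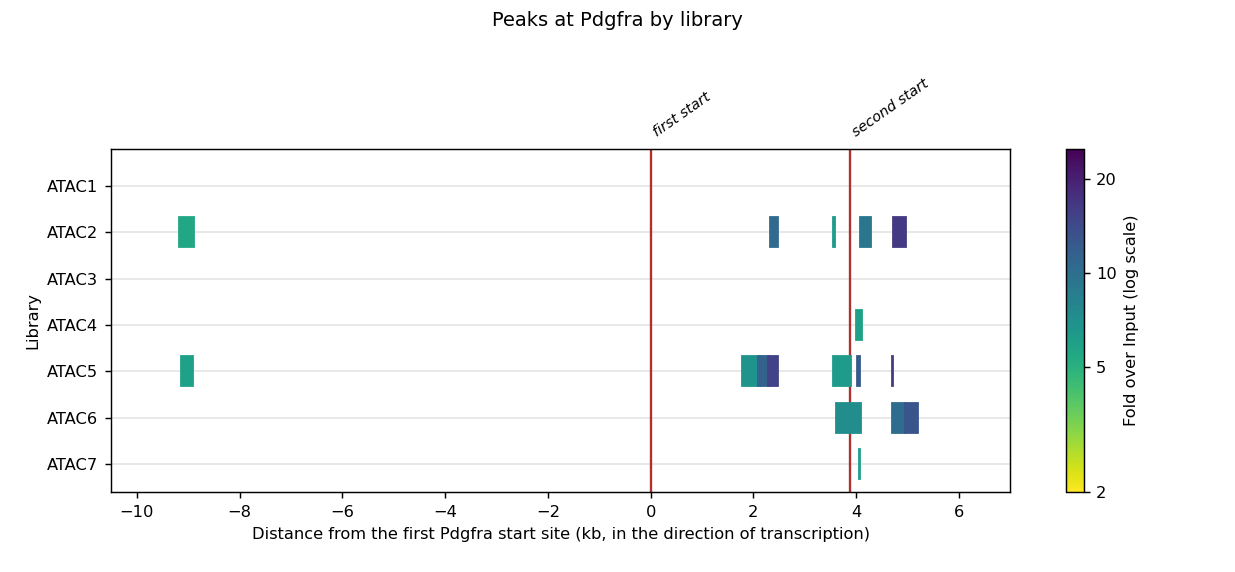
Peaks at Pdgfra in each library, by distance in kb from the first annotated start in the direction of transcription; boxes are peaks at their called width, coloured by fold over Input on a log scale, and red lines are the 2 annotated starts. No box touches the first start, 5 libraries have boxes at the second, and the rows of ATAC1 and ATAC3 are empty.

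Sequences at both Pdgfra starts are shown because all of the calls fell at one and none at the other. They lie in unlike places, before the first start and in the intron after the second, so their composition is not compared. The stretch before the first start is chr5:75548066-75548315, without a peak. The stretch after the untranslated exon of the second start is chr5:75552375-75552601, which runs from the first base of the intron to the end of the ATAC2 peak. That peak covers 204 of its 227 bases, and the peaks of ATAC4, ATAC6, ATAC5 and ATAC7 cover its first 48, 33, 24 and 24. The upstream region is the stretch shared by the peaks of ATAC2 and ATAC5, chr5:75539169-75539399. All 3 are from mm9, plus strand, 5′ to 3′, with matches to any of 9 motifs, on either strand, in capitals. The letters searched were TGANTCA for AP-1, the Fos and Jun factors, and CCGGAA for the ETS factors. RUNX factors were searched by TGTGGT, the GC box of Sp and Klf factors by GGGCGG, and the CCAAT box by its name. GATA factors were searched by AGATAA, and the TATA box of core promoters by TATAAA, which can overlap its own reverse complement. TEAD factors were searched by GGAATG, and the CRE of CREB factors by TGACGT. The E-box, CANNTG, was searched as well and is not marked.
Pdgfra before the first start: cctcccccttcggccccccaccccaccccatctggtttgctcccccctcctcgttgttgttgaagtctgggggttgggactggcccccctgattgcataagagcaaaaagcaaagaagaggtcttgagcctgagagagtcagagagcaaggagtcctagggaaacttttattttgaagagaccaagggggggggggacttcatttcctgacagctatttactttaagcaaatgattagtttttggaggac
Pdgfra after the second start: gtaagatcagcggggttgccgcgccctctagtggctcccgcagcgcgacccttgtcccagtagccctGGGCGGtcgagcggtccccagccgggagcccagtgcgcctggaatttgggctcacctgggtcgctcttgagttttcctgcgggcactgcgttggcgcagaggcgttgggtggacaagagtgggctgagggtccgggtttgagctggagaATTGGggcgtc
Pdgfra upstream region: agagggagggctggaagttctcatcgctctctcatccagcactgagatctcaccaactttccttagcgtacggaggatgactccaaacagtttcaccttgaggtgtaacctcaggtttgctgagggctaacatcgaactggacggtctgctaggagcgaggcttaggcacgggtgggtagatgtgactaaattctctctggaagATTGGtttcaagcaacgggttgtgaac
The stretch before the first start was 52% G and C with 2 CpG, against a median of 54% in the 250 bases before all genes, and held none of the marked motifs. The stretch after the second start was 66.5% G and C with 18 CpG, against a median of 66.1% in start-site regions of its length. It held 1 GC box, a motif found in 63.98% of those regions, and 1 CCAAT box, found in 29.7%. The upstream region held 1 CCAAT box, found in 24.6% of the 30431 regions away from start sites at that length. Each match is a description of letters and was common in the background.

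Pdgfrb, the other receptor, had a start-site peak in ATAC1, ATAC2, ATAC5, ATAC6 and ATAC7 and in neither ATAC3 nor ATAC4. The gene (ENSMUSG00000024620.5) lies on the plus strand at chr18:61204804-61244715, and the peaks lay over its 5′ end. ATAC5 had 298 reads against 34 in Input, a fold of 15.0 (10.5 to 22.1). ATAC2 had 178 against 32, a fold of 8.79 (6.01 to 13.2). ATAC6 had 169 against 33, a fold of 8.06 (5.53 to 12.1). ATAC5 was the highest and ATAC2 and ATAC6 lay close together. ATAC7 had 135 against 22, a fold of 6.78 (4.30 to 11.2). ATAC1 had 91 against 19, a fold of 5.88 (3.56 to 10.2). The interval of ATAC5 lay above that of ATAC1 and overlapped the other 3, and no other pair of neighbours in this order was apart. Folds in general were higher in ATAC5, where the median of start-site peaks was 12.4, than in ATAC1, where it was 8.63, and in ATAC7, where it was 5.89. Within its library, Pdgfrb exceeded 62.6% of the called genes in ATAC5, 60.8% in ATAC7, 50.5% in ATAC2, 27.0% in ATAC6 and 25.1% in ATAC1. By fold set against its own library ATAC7 thus stood beside ATAC5. By scaled reads Pdgfrb exceeded 36.5% of the called genes in ATAC5, 34.5% in ATAC2, 27.0% in ATAC7, 20.8% in ATAC6 and 8.73% in ATAC1. At equal list length Pdgfrb was left in ATAC2, ATAC5 and ATAC7. The median fold of the best-ranked peaks, over the libraries with one, was 8.06 for Pdgfrb, 7.29 for Pdgfra, 6.95 for Pdgfd, 5.38 for Pdgfc and 3.19 for Pdgfa. By the start-site peak of highest fold in each library, the median of Pdgfra was 10.2 and thus above that of Pdgfrb.

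Far upstream of Pdgfrb lay a pair of regions between genes that were called about as often as its start. The first, 52.5 kb upstream at chr18:61152196-61152376, was called in ATAC1, ATAC2, ATAC3, ATAC5 and ATAC7. ATAC5 had 260 reads against 26 there, a fold of 17.1 (11.4 to 26.7), and ATAC3 had 77 against 17, a fold of 4.57 (2.68 to 8.25). ATAC3 had no peak at the Pdgfrb start itself. The second, 51.9 kb upstream at chr18:61152746-61153036, was called in ATAC1, ATAC2, ATAC5, ATAC6 and ATAC7. Its folds ran from 5.95 (3.84 to 9.55) in ATAC1 to 12.6 (9.05 to 17.9) in ATAC5. The nearest start of either was that of Slc6a7, a brain proline transporter gene, where no library had a peak. Which gene these regions act on was not measured.

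Of the 14 merged regions in or within 100 kb of Pdgfrb, 2 had a Pdgfrb start as the nearest. The second of them was an intronic peak 10.6 kb into the gene, called in ATAC5 alone with 62 reads against 25, a fold of 4.25 (2.63 to 7.05). Downstream lies Csf1r, the gene for the macrophage receptor kinase that is a relative of the PDGF receptors. ATAC1 had a peak 46.8 kb past the Pdgfrb start, nearest to Csf1r, with 71 reads against 4, and a fold of 21.8. A region in an intron of Csf1r was called in ATAC1 and ATAC5 with folds of 6.55 to 7.93, while no library had a peak at a Csf1r start. The peaks at the start of Hmgxb3, at the far end of the window, were called in all 7 libraries, and those at the start of Camk2a in ATAC2 and ATAC6.

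**Figure D3:**
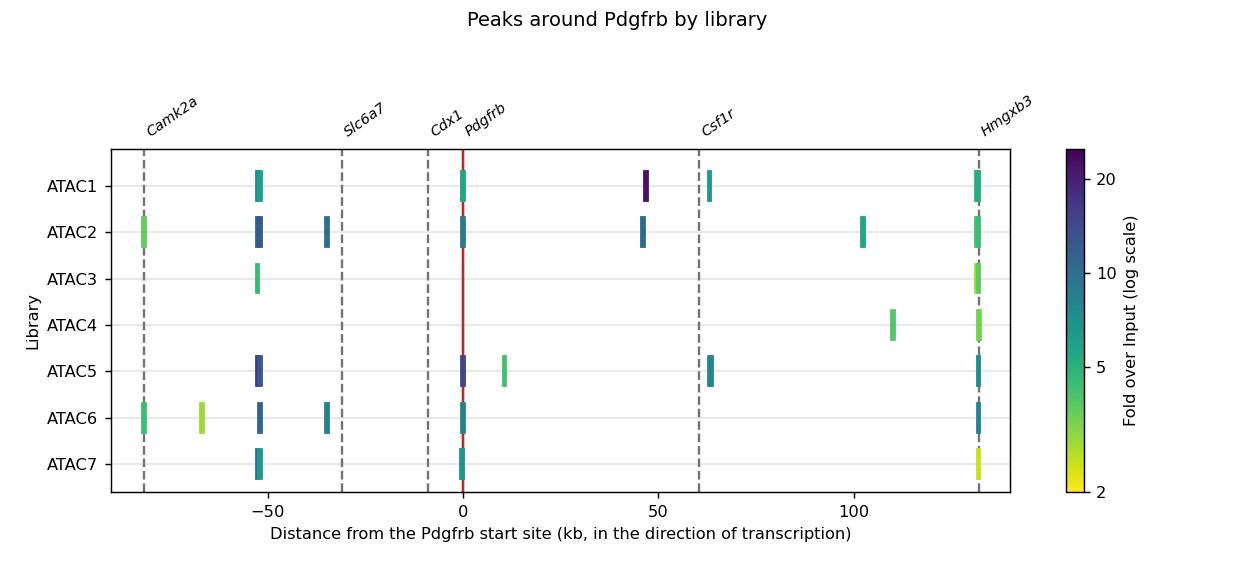
Peaks in the neighbourhood of Pdgfrb in each library, by distance in kb from its start in the direction of transcription; boxes are peaks coloured by fold over Input on a log scale and drawn at least 900 bases wide to be visible, the red lines are the Pdgfrb starts and the dashed lines 1 start of each neighbour. About 52 kb upstream, 4 rows (ATAC1, ATAC2, ATAC5 and ATAC7) have both regions of the pair, ATAC3 and ATAC6 have 1 each and ATAC4 has none, and the Hmgxb3 start is present in all 7.

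Pdgfa, whose product binds PDGFR-α, had a start-site peak in 6 libraries, all but ATAC4. The peaks of ATAC3, ATAC5 and ATAC7 were left at equal list length, and 1 library was left at folds of at least 5. The gene (ENSMUSG00000025856.9) lies on the minus strand at chr5:139451968-139473324 and has 7 annotated starts. ATAC5 had 193 reads against 72 in Input, a fold of 4.59 (3.49 to 6.11). ATAC1 had 124 against 47, a fold of 3.24 (2.30 to 4.64). ATAC2 had 140 against 69, a fold of 3.21 (2.39 to 4.34). These 3 did not differ beyond their intervals. ATAC6 had 183 against 91, a fold of 3.17 (2.45 to 4.12). ATAC7 had 114 against 48, a fold of 2.62 (1.86 to 3.76). ATAC3 had 95 against 44, a fold of 2.18 (1.51 to 3.19), and its interval lay below that of ATAC5 and overlapped the rest. The folds of these best-ranked peaks were low for start-site peaks, above those of 0.401% of the called genes in ATAC3 and of 4.51% in ATAC5, which were the extremes of the 6. The Input reads were 44 to 91, and the 91 in ATAC6 were the most at any PDGF start.

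All 6 peaks fell in 1 region, chr5:139470826-139471377, which is also the start of the neighbouring transcript 6330403L08Rik on the opposite strand and overlaps its coding exon. The same peaks count for both genes and cannot be told apart. RefSeq starts of Pdgfa matched at positions 139470235 and 139470898, and both had a peak within 1000 bases in 6 libraries. The 5′ end of the GENCODE record, 2426 bases upstream of the latter, had none. A further start-site peak of ATAC5 at chr5:139471390-139471560 had a fold of 7.32, which is above that of 19.3% of the called genes. Others at chr5:139471858-139472007 had folds of 3.61 in ATAC2 and 5.21 in ATAC5.

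Upstream of Pdgfa, 17.8 kb from the 5′ end and between genes, a region was called in 4 libraries. ATAC6 had 125 reads against 17, a fold of 11.6 (6.95 to 20.5). ATAC2 had 117 against 19, a fold of 9.73 (5.96 to 16.7). ATAC5 had 88 against 16, a fold of 9.42 (5.49 to 17.2). ATAC1 had 60 against 10, a fold of 7.37 (3.74 to 16.2), and all 4 intervals overlapped. Each of these folds was higher than the fold at the Pdgfa start in the same library, although the reads were fewer. The intervals at the region and at the start were apart in ATAC2 and ATAC6 and overlapped in ATAC1 and ATAC5. The nearest start was that of Prkar1b, a regulatory subunit of protein kinase A, 8.66 kb away, where no library had a peak.

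Pdgfb, the ligand of both receptors that is known from platelets and endothelium, lacked a start-site peak in all 7 libraries. The gene (ENSMUSG00000000489.6) lies on the minus strand at chr15:79826330-79845238 with 1 annotated start. Of all protein-coding genes, 43.3% likewise had none. The nearest peak of any library lay 68629 bases from the start, whereas the median gene had one 128.5 bases from a start. Only 17.4% of protein-coding genes had their nearest peak farther away. No peak lay in the gene or within 50 kb. The 29 peaks in 9 regions within 100 kb of it lay at, in or near the neighbouring genes Rpl3, Syngr1, Cbx7 and Apobec3. The start of Rpl3, a ribosomal protein gene, was called in all 7 libraries with folds of 5.49 to 11.5. A start of Cbx7, a Polycomb gene, 82169 bases from that of Pdgfb, was called in 6, all but ATAC2. The Cbx7 starts nearest to Pdgfb, 43690 and 43689 bases away, had a peak in 0 libraries. Starts of Syngr1 were called in 4 or 3 libraries. Some neighbouring starts were thus called by libraries in which Pdgfb was not, and others were not called.

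**Figure D4:**
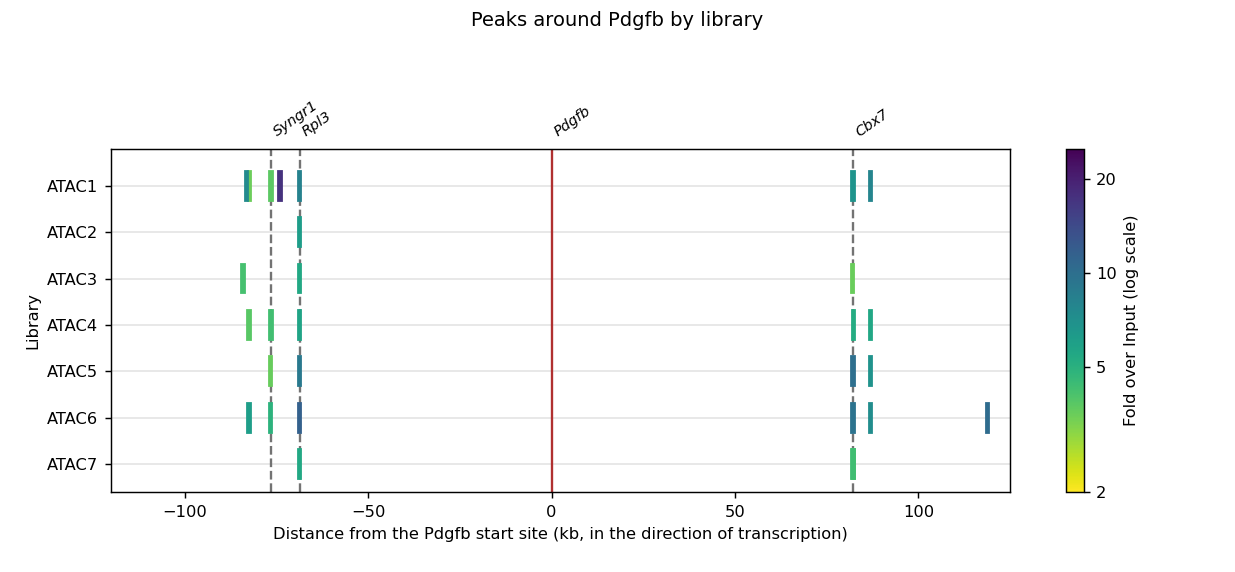
Peaks in the neighbourhood of Pdgfb in each library, by distance in kb from its start in the direction of transcription; boxes are peaks coloured by fold over Input on a log scale and drawn at least 900 bases wide to be visible, the red line is the Pdgfb start and the dashed lines 1 start of each neighbour. The space between the Rpl3 and Cbx7 starts, with Pdgfb in it, holds no box in any row.

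Pdgfc, a ligand of PDGFR-α that has to be cut by a protease before it can bind, had a start-site peak in ATAC1, ATAC2, ATAC4, ATAC5 and ATAC6 and in neither ATAC3 nor ATAC7. The gene (ENSMUSG00000028019.3) lies on the plus strand at chr3:80840338-81017962, and the peaks lay in its first, untranslated exon. ATAC5 had 216 reads against 51 in Input, a fold of 7.25 (5.32 to 10.05). ATAC6 had 204 against 50, a fold of 6.42 (4.69 to 8.94). ATAC2 had 167 against 49, a fold of 5.38 (3.90 to 7.56). These 3 had the most reads and overlapped. ATAC4 had 63 against 19, a fold of 3.75 (2.22 to 6.64). ATAC1 had 94 against 36, a fold of 3.21 (2.2 to 4.85), and its interval lay below that of ATAC5 and overlapped the others. At equal list length Pdgfc was left in ATAC4, ATAC5 and ATAC6. Within its library the fold exceeded that of 2.73% of the called genes in ATAC1 and at most 19.6%, in ATAC2. A further peak in the same exon was called in ATAC2 and ATAC6 at chr3:80841079-80841336, with 82 reads in each and folds of 5.18 and 5.87.

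ATAC6 was the library with intronic peaks in Pdgfc. They lay 22.3, 65.9 and 127.8 kb past the start, with 54 reads against 14, 44 against 9 and 92 against 16. Their folds were 6.07 (3.33 to 11.8), 7.70 (3.71 to 17.9) and 9.05 (5.29 to 16.5). Each interval overlapped that of the fold at the start in ATAC6, 6.42 (4.69 to 8.94). No other library had a peak in these introns. ATAC2 alone had a peak 5.88 kb upstream, with 44 reads against 8 and a fold of 8.69. All 6 regions in the window were nearest to a start of Pdgfc, and no other protein-coding gene starts there.

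Pdgfd, a ligand of PDGFR-β that is also activated by cleavage, had a start-site peak in ATAC2, ATAC3 and ATAC5 and was the least often called of the 5 genes with any. The gene (ENSMUSG00000032006.7) lies on the plus strand at chr9:6168612-6378843. ATAC2 had 76 reads against 15 in Input, a fold of 8.01 (4.56 to 15.0). ATAC5 had 69 against 17, a fold of 6.95 (4.04 to 12.6). ATAC3 had 47 against 10, a fold of 4.74 (2.36 to 10.5). The 3 intervals overlapped. Only that of ATAC3 was left at equal list length. The ATAC5 peak was the 29100th of 31479 in its list. In an intron 174.3 kb past the start, ATAC2 alone had a peak with 69 reads against 5, a fold of 21.8 (8.91 to 69.3). ATAC6, which had no peak at the start, had 1 peak 77.7 kb upstream with 49 reads against 8, a fold of 9.64.

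Over all 6 windows there were 115 peaks in 41 merged regions. Of these regions, 18 were called in 1 library and 2 in all 7, and both of the latter were starts of neighbours, Hmgxb3 and Rpl3. The matching shares over all merged regions were not computed. In 15 regions the nearest start was that of the PDGF gene. The median protein-coding gene had 8 regions in such a window. Fewer regions than Pdgfrb, with 14, were found for 74.1% of genes. The shares were 52.8% for Pdgfb, with 9, 27.7% for Pdgfra, with 4, and 22.8% for Pdgfd, with 3. The peaks numbered 24 in ATAC2, 24 in ATAC5, 23 in ATAC6, 18 in ATAC1, 9 each in ATAC4 and ATAC7, and 8 in ATAC3. This broadly follows the length of the lists. Scaled reads at the start were highest in ATAC5 for Pdgfrb, Pdgfa and Pdgfc, in the library whose start-site peaks had the highest median of scaled reads, 745. Set against its own library, Pdgfa exceeded 25.6% of the called genes in ATAC2 and 24.4% in ATAC5 by scaled reads, and Pdgfc 32.3% and 27.1%. Pdgfrb went the other way, with 34.5% in ATAC2 and 36.5% in ATAC5. The scaled reads of Pdgfra were 269 in ATAC2 and 260 in ATAC5, and those of Pdgfd 120 in ATAC2 and 118 in ATAC5, which are within counting error. Per 1000 bases of outer region the highest library of Pdgfra was ATAC5, and summed over all start-site peaks that of Pdgfc was ATAC6.

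The same set of libraries was called for 11 genes in the case of Pdgfra, itself included, and for 146 in that of Pdgfrb, 194 in that of Pdgfa, 172 in that of Pdgfc and 4 in that of Pdgfd. The genes most like Pdgfra, by the Euclidean distance of the log2 folds over the 5 libraries, were Myo1h at 0.31, Kank1 at 0.86 and Rras2 at 0.88. Those most like Pdgfrb over 5 libraries were Mcts2 at 0.43, Layn at 0.53 and Olfml3 at 0.53. Those most like Pdgfa over 6 were 6330403L08Rik at 0, since it has the same peaks, Gmip at 0.48 and N4bp3 at 0.62. Those most like Pdgfc over 5 were Med12l at 0.28, Ehhadh at 0.34 and Trmt12 at 0.39. Those most like Pdgfd over 3 were Cited1 at 1.22, Mtus1 at 1.39 and Nfkbia at 2.2, and these were the whole set.

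In sequence, the start-site regions of the 5 called genes, 300 bases each, were not alike. Their G and C content was 74.3% in Pdgfc, 74% in Pdgfa, 67% in Pdgfra, 60.3% in Pdgfd and 55.7% in Pdgfrb, against a median of 66% over 12677 genes. The CpG numbered 37 in Pdgfa, 34 in Pdgfc, 26 in Pdgfra, 17 in Pdgfd and 6 in Pdgfrb, against a median of 27. Pdgfrb was thus the poorest in CpG of the 5. A GC box was found in 4 of the 5, in all but Pdgfrb, against 72.2% of the background. Pdgfrb held a CCAAT box, found in 34.96%, and a RUNX match, found in 10.5%. Pdgfd held a CRE match, found in 11.98%. An E-box was found in Pdgfra, Pdgfa and Pdgfc, against 57.7%. None of the 5 held an AP-1, ETS, GATA, TATA box or TEAD match, motifs found in 4.86%, 29.0%, 3.26%, 3.71% and 9.24% of the background.

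The genes around the PDGF system were read from 5 lists. Of the 10 genes that process the ligands or help the receptors, those with a start-site peak numbered, by library, 9 in ATAC2, 9 in ATAC5, 8 in ATAC6, 5 in ATAC1, 4 each in ATAC3 and ATAC7, and 3 in ATAC4. These are shares of 30% to 90%, against 42% to 52.7% of all genes, above that background in ATAC2, ATAC5 and ATAC6 and near or under it in the others. Furin, the protease that matures the A and B chains, was called in all 7 libraries with folds of 4.46 to 9.38. Plat, the tissue plasminogen activator that cleaves the C chain, was called in 5, all but ATAC3 and ATAC4, with folds of 4.78 to 11.7. Plau, the urokinase that cleaves the D chain, was called in ATAC1, ATAC2, ATAC5 and ATAC6 with folds of 3 to 11. St14, the membrane protease matriptase, was called in none. Sparc, a matrix protein that binds PDGF, was called in ATAC2, ATAC5 and ATAC6 with folds of 8.43 to 10.1. Cspg4, the pericyte proteoglycan NG2, was called in ATAC2 and ATAC5 with 40 to 43 reads. Lrp1, an endocytic co-receptor of PDGFR-β, was called in all but ATAC1 with folds of 5.53 to 17.9. Pcsk5 was missing in ATAC3, Nrp1 in ATAC4 and ATAC7, and Pcsk6 in ATAC1, ATAC4 and ATAC7. Of the 10, 1 was called in all 7 libraries, a share of 10% against 36.8% of all genes.

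The adaptors and downstream kinases were called nearly everywhere. Of 22 adaptors and enzymes that bind the receptors, 19 to 21 were called in each library. In all 7 libraries 17 were called, or 77.3% against 36.8% of all genes. Shc1, an adaptor to the RAS pathway, had folds of 12.2 to 27.4. The exceptions were Grb7, called in none, Yes1 and Grb10, called in 4 each, and Gab1 and Nck2, called in 6 each. Of 18 matched genes of the downstream list, 17 or 18 were called in each library. Stat3, a transcription factor, had folds of 11.8 to 24.1, and Stat5b, its relative, was missing in ATAC2 and ATAC7. Against the background of 42% to 52.7% these shares were high in every library, whereas those of the receptors and ligands moved with the library.

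Of the 6 relatives of the PDGF receptors, 3 or 50% had a start-site peak in at least 1 library, against 56.7% of all genes. Kit, the stem cell factor receptor, had a start-site peak in ATAC4, ATAC5 and ATAC6 with folds of 2.81 to 4.07. Flt3 had one in ATAC1, ATAC2, ATAC5 and ATAC6 with folds of 4.53 to 6.66, and Kdr, a VEGF receptor, in ATAC5 alone with 59 reads against 22. Csf1r, Flt1 and Flt4 had none. Among the 9 related ligands, Csf1, Vegfa, Vegfc and Flt3l were called in all 7 libraries, a share of 44.4% against 36.8% of all genes, Kitl in all but ATAC4 and Vegfb in ATAC1, ATAC2, ATAC5 and ATAC6. Pgf, Figf and Il34 were called in none.

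**Figure D5:**
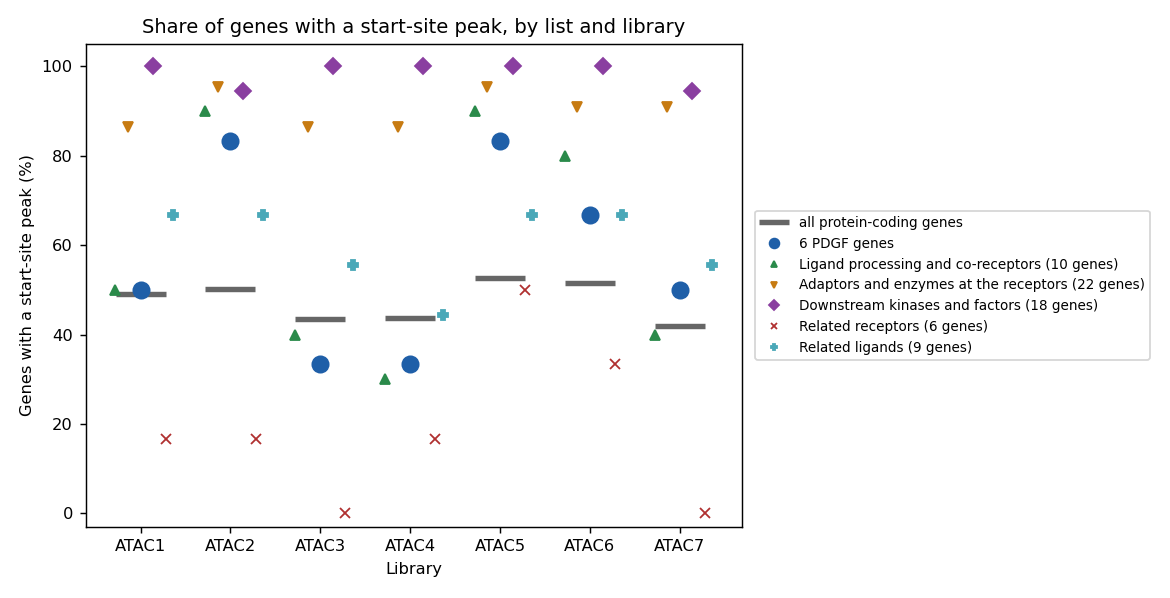
Percent of the genes of each list with a start-site peak in each library, where grey bars are all protein-coding genes, blue points the 6 PDGF genes and other symbols the 5 lists of genes around them. The PDGF genes lie above the grey bar by the most in ATAC2 and ATAC5 and below it in ATAC3 and ATAC4, and the adaptors and downstream genes lie above it in all 7.

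Markers of cell types were read in the same way. Of the 12 stromal markers, which include Pdgfra and Pdgfrb, 2 to 6 were called in each library, a share of 16.7% to 50%, at or under that of all genes in each. Nt5e was called in all 7, Col1a1 in all but ATAC4, Col1a2 in ATAC2, ATAC5, ATAC6 and ATAC7, and Cxcl12 in ATAC2 and ATAC5. Lepr, Ly6a, Prrx1, Eng, Vcam1 and Thy1 were called in none, although Ly6a encodes Sca-1, on which the cells were sorted. Markers of other cells were called most often in ATAC5, which like ATAC2 had 5 of 6 PDGF genes called. In ATAC5, 4 of 11 matched haematopoietic markers, 4 of 10 endothelial and 4 of 10 mural markers had a start-site peak. The other libraries had 0 to 2, 0 to 1 and 0 to 2 of them. ATAC2 itself had 0 haematopoietic, 1 endothelial and 2 mural markers called. The shares of ATAC5, 36.4%, 40% and 40%, were under the 52.7% of all genes called there, the highest such share of any library. Pecam1, which encodes CD31, was called in ATAC5 alone, with 56 reads against 7. Ptprc, which encodes CD45, was missing in ATAC2, ATAC4 and ATAC6 and had 58 to 84 reads against 0 to 2 in the remaining libraries. Vwf, an endothelial and megakaryocyte marker, was called in ATAC1, ATAC2, ATAC4, ATAC5 and ATAC6 with folds of 3.89 to 8.14, and Itgam, a myeloid marker, in ATAC3 and ATAC5. Cd3e, Lyz2, Gata1, Cdh5, Tek and Rgs5 were called in none. Of 6 megakaryocyte markers Itga2b alone was called, in every library, while Pf4 and Ppbp were called in none. That is a share of 16.7%, against 56.7% of all genes called in at least 1 library and 36.8% in all 7. Kit, Csf1r, Kdr, Flt4 and Cspg4 stand both in these lists and in those around the PDGF system. The part of such cells in the calls at the PDGF genes was not tested.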

How the data were processed

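The 7 ATAC-seq peak tables, each called against the same Input, were used. The authors sorted the cells, aligned reads to mm9 with bowtie and called peaks per library with the two-sample mode of CisGenome (p-value limit 1e-05, FDR under 0.01). The extract protocol in the labels describes an RNA preparation, while the molecule given is genomic DNA and the methods of the study describe ATAC-seq. Transposase shifts and duplicate filters were not given in the sources used here. The deposited tables have no header, so columns were identified from their values. They hold read counts of library and Input, the authors' fold as a ratio (scale factor times reads over Input reads plus 0.01), and signal statistics of the caller. The scale factor recovered from it varied by at most 0.0398% within a library. Coordinates were read as inclusive.

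Start-site peaks, merged regions (1 shared base) and peaks within 100 kb were computed in Python 3.11.15 with pandas 2.3.3 and scipy 1.17.1, with exact Poisson and conditional binomial intervals, after tests on simulated data. An Input count of 0 was set to 3. Sequence came from NCBIM37, the genome of mm9. RefSeq promoters (GRCm38.p6) matched 4 of the 6 genes. Lists matched 65 of 66 pathway genes. The members and lists were chosen with earlier results of these data known. Named neighbours and like genes followed a rule on start sites and on called libraries. Alternative windows, flanks, fold limits and equal list lengths were tried. Some list genes and sequences are not reported here.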

Additional observations from a re-analysis of the deposited data

How the results depend on the processing

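The 24 pairs of PDGF gene and library with a start-site peak fell to 13 when only the 5′ end of each gene was taken, which removes Pdgfra and Pdgfa, and to 15 at equal list length. The 115 peaks around the genes fell to 59 with a flank of 50 kb, 54 with 20 kb, 41 within the gene bodies, 42 when the nearest start had to be that of the gene, and 59 at equal list length. The number of merged regions called in all 7 libraries was 2, and 1 with folds of at least 5. In 18 other alternatives the main values stayed within 1.5 times of these. Among single genes and lists, 38 alternative values moved by more than that and 89 did not. At equal list length the PDGF genes called numbered 4 in ATAC5, 3 in ATAC7, 2 each in ATAC2, ATAC3, ATAC4 and ATAC6, and 0 in ATAC1. Of all genes, 45.6% were then called in ATAC5, 42.0% in ATAC7 and 44.3% in ATAC1, within a range of 41.5% to 45.9% over the libraries. Low Input reads limit the folds. No paired analysis was possible because the titles carry no replicates, 1 library standing for each.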
